A study of Mus musculus with 20 samples.

Results

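Gene expression after restraint stress was compared in male mice. The tissue was the BNST (bed nucleus of the stria terminalis), a forebrain region between the amygdala and the hypothalamus. The comparison set 5 libraries of stress-susceptible males (MS 1 to MS 5) against 5 libraries of male controls (MC 1 to MC 5), chosen by their sample titles, which are 10 of the 20 libraries of the study. All autosomal genes were used: the count tables listed 18455 of them, and 14322 had enough reads to be tested. MS mice had been through chronic restraint stress, which confines a mouse again and again and serves here as a model of anxiety, and the labels name them susceptible. MC mice are named controls. The labels write sex under genotype and do not say how susceptibility was judged. The sources used here give no strain, age or number of animals behind a library. The p-values therefore rest on the spread between libraries alone, and that spread may be technical. Both groups had polyadenylated RNA sequenced as read pairs.

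The BNST holds mostly GABA neurons and is known for its part in sustained anxiety and in the control of the hypothalamic stress axis. In that axis corticotropin-releasing hormone drives the release of glucocorticoids, which act through the receptor gene Nr3c1 and its heat shock protein partners to switch on target genes in the brain. Neuronal activity switches on immediate early genes, and the circadian clock runs as a loop in which Per, Cry and Nr1d genes repress their own activators.

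Total counts ran from 14637636 to 16120613 in MS libraries and from 14758273 to 17862840 in MC libraries. Levels are given in CPM, that is counts scaled to library size, and differences as log2 fold change of MS over MC ± standard error. The Y-linked genes Uty, Kdm5d, Eif2s3y and Ddx3y were present in every male library. The GABA synthesis genes Gad1 and Gad2 had group means of 774 ± 125 and 867 ± 147 CPM in MS and 744 ± 81.1 and 830 ± 88.2 CPM in MC (SD, n = 5 each) and so were abundant in both. Both groups also held RNA of adjoining structures in unequal amounts. Ttr, which the choroid plexus expresses strongly, was 12.7, 143, 58.3, 8.46 and 1407 CPM in MS 1 to MS 5 and 6.96, 59.6, 25.1, 7.34 and 1684 CPM in MC 1 to MC 5. Slc17a6, a glutamate transporter gene of thalamus and hypothalamus, was 334 CPM in MS 5 and 58.1 to 61.1 CPM in the other MS libraries, against 173 CPM in MC 1 and 17 to 46.7 CPM in the other MC libraries. Slc17a7, the transporter gene of cortical and hippocampal neurons, was highest in MC 5, at 611 CPM, and the red cell gene Hbb-bs was lowest there, at 0.499 CPM. On the first 2 principal components of the 10 libraries (27.2% and 21.5% of variance) MS 5 and MC 5 stood apart from the rest.

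**Figure D1:**
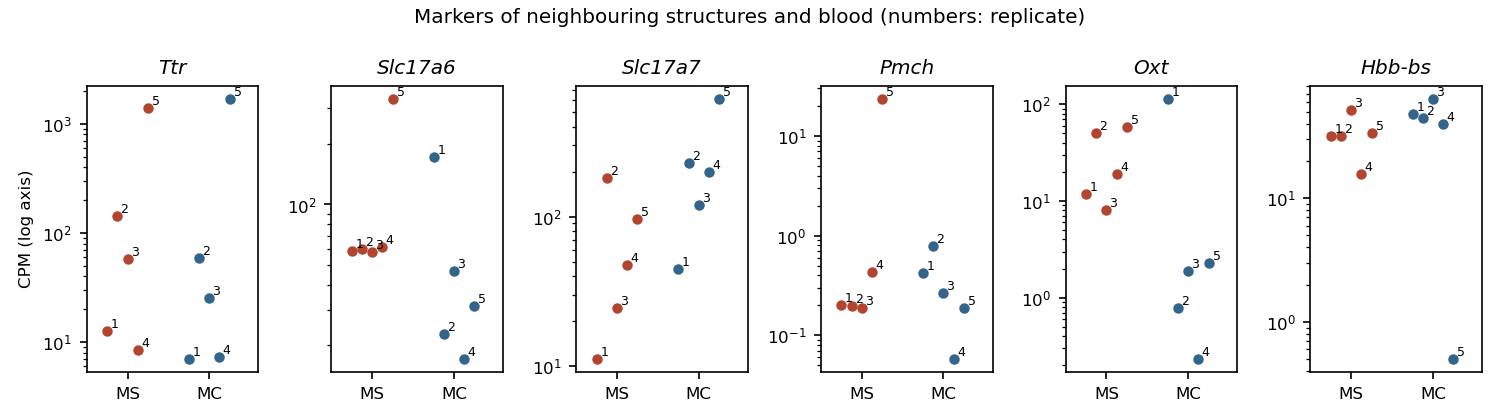
CPM on a log axis of 5 markers of structures beside the BNST and of the red cell gene Hbb-bs, 1 point a library with its replicate number, MS left and MC right. MS 5 is highest for Slc17a6 and Pmch and is, with MC 5, one of the pair of libraries far above the rest for Ttr; MC 5 has 0.499 CPM of Hbb-bs.

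No autosomal gene reached the threshold (edgeR quasi-likelihood with Benjamini-Hochberg adjustment, smallest adjusted p = 0.405, shared by 218 autosomal genes), so 0% of 14322 was called. At an unadjusted p under 0.05 stood 1376 genes (9.61%), 637 higher in MS (4.45%) and 739 lower (5.16%). DESeq2 called 23 genes, 20 higher and 3 lower, and limma voom with sample quality weights called 630. With the trend of each library on GC content and exon length removed, limma voom called 0 genes and edgeR had 521 genes higher (3.64%) and 317 lower (2.21%) at an unadjusted p under 0.05. The differences were small in size. The 1376 genes had a median absolute log2 fold change of 0.255, and 48 of them exceeded a factor of 2. In 198 genes (1.38%) every MS library lay above every MC library and in 147 (1.03%) every MS library lay below.

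Differences ran with base composition. The genes were put into 5 bins of equal size by the GC content of their exons. In the bin of lowest GC content (34.3% to 44.9%), 399 were higher and 25 lower in MS at an unadjusted p under 0.05. In the bin of highest GC content (56% to 72.8%), 12 were higher and 348 lower. From the lowest to the highest GC content the median log2 fold changes of the 5 bins were 0.0804, 0.0253, -0.0214, -0.0575 and -0.101. In 5 bins by exon length, from the shortest to the longest genes, 94, 131, 135, 133 and 144 were higher and 94, 140, 174, 190 and 141 lower, with medians between -0.0171 and -0.00592. Within a library the trend can be read as the median deviation of the lowest bin minus that of the highest bin. This was 0.0969, -0.01, 0.0744, 0.148 and 0.116 in MS 1 to MS 5 and 0.00131, -0.174, -0.211, -0.0456 and -0.0047 in MC 1 to MC 5. MS libraries averaged 0.0850 ± 0.0595 and MC libraries -0.0868 ± 0.0991 (log2, SD, n = 5 each), a difference of 0.172 with an exact 2-sided permutation p of 0.0238, where the smallest possible is 0.00794. The groups overlapped, since MS 2 lay below MC 1 and MC 5. Whether this trend came from the cells or from library preparation was not tested.

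**Figure D2:**
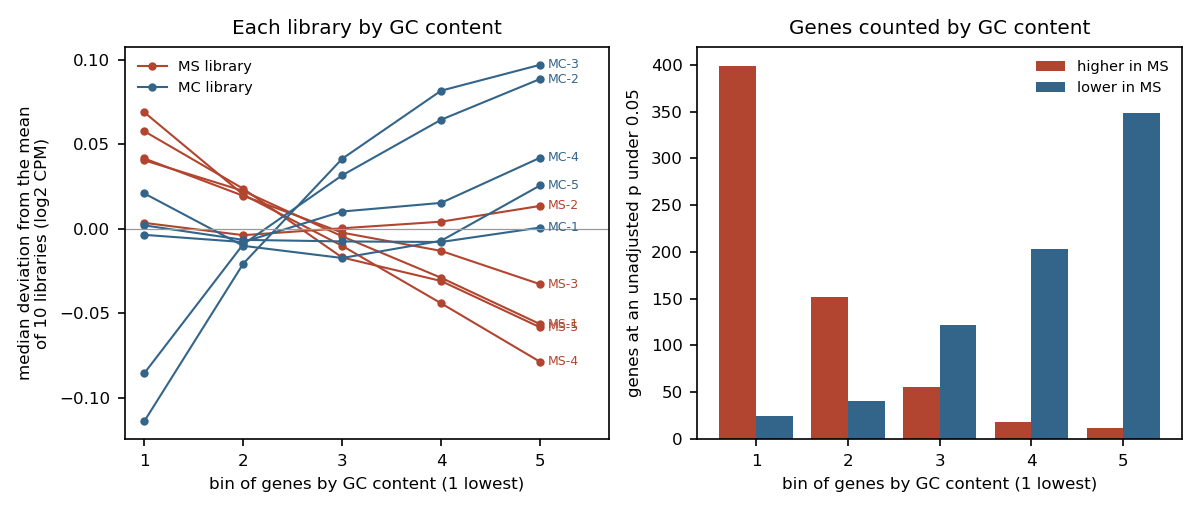
Left, median deviation of each library from the mean of the 10 libraries (log2 CPM) in 5 bins of genes by exon GC content, with MS lines and MC lines; right, genes at an unadjusted p under 0.05 in each bin, higher and lower in MS. MC 2 and MC 3 climb with GC content while MS 1, 3, 4 and 5 descend, and counts turn from 399 higher and 25 lower to 12 higher and 348 lower.

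Coding sequence of leading genes is shown as an illustration. The genes were picked for their GC content, so the contrast between them follows from the choice. The 4 stretches below are the first 150 coding bases (GENCODE release 21 on GRCm38), with G and C in capitals. They are of the 2 genes with the lowest and the 2 with the highest GC content among 20 leading genes. These 20 are the 10 named genes with the smallest p-values in each direction at a mean of at least 5 CPM. Ube2v2 lies on chromosome 16, 15552077 to 15595773, and Ccnc on chromosome 4, 21727701 to 21759922, both higher in MS. Pcnx3 lies on chromosome 19, 5664635 to 5688908, and Bcl9l on chromosome 9, 44482825 to 44511896, both lower in MS. Over the whole coding sequence GC made up 40.5% in Ube2v2 and 39.6% in Ccnc, against 60.1% in Pcnx3 and 62.5% in Bcl9l. The stretches hold 67, 59, 83 and 89 G or C bases in that order.
Ube2v2: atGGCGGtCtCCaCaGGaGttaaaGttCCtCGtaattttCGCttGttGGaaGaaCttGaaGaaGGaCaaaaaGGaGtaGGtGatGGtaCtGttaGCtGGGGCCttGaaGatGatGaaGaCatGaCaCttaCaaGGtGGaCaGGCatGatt
Ccnc: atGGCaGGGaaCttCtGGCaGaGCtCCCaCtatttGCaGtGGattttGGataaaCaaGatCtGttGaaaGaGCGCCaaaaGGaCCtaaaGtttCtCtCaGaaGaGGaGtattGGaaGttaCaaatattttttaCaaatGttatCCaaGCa
Pcnx3: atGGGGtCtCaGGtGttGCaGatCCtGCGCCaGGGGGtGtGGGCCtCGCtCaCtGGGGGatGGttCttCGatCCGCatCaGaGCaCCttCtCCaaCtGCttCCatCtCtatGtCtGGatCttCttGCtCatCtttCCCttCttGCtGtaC
Bcl9l: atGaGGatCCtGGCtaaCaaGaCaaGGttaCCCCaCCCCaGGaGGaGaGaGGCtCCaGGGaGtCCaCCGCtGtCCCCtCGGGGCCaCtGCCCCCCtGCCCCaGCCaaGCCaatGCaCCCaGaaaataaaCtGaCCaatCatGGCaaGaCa

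Of the 10 named genes with the smallest p-values on the higher side, 2 were genes of ubiquitin transfer. E2 enzymes carry ubiquitin to the substrates that E3 ligases choose, and Ube2v2 and Ube2n form a pair that builds lysine-63-linked chains. Ube2v2, with the smallest p of all autosomal genes, was 48.8, 41.3, 45.9, 46.2 and 48.6 CPM in MS 1 to MS 5 and 38.9, 32.6, 27.5, 40.3 and 29.1 CPM in MC 1 to MC 5 (0.45 ± 0.09, edgeR adjusted p = 0.405). Its partner Ube2n (chromosome 10, 95515145 to 95545657) was 206, 187, 198, 197 and 205 CPM in MS and 177, 168, 160, 180 and 143 CPM in MC (0.26 ± 0.06, edgeR adjusted p = 0.405). Both members of the pair therefore stood higher in every MS library than in any MC library. Of 32 E2 genes tested, 22 stood higher and 10 lower (median 0.07, against -0.01 over all genes), with 8 higher and 2 lower at an unadjusted p under 0.05, against 4.45% and 5.16% of all genes. Ube2l3 (0.16 ± 0.06), Ube2q2 (0.17 ± 0.06) and Ube2r2 (0.18 ± 0.08) also had groups that did not overlap. The other variant gene, Ube2v1, went the other way, at 0.608 ± 0.148 CPM in MS and 1.10 ± 0.236 CPM in MC (-0.85 ± 0.26). Its groups did not overlap either, the closest libraries being MS 2 at 0.790 CPM and MC 5 at 0.811 CPM. At this low level reads shared with its near copy Ube2v2 or with overlapping genes could not be separated. With the GC and length trend removed, 5 E2 genes stood higher and 1 lower at an unadjusted p under 0.05. The shares of all genes in that fit were 3.64% and 2.21%. Ube2v2 then stood at 0.34 and Ube2n at 0.17. Of 42 proteasome genes, 28 stood higher, with 3 at an unadjusted p under 0.05, against 4.45% of all genes. These were Psmc6 (0.16 ± 0.06), Psma2 (0.18 ± 0.07) and Psmd5 (0.17 ± 0.07), none of which passed that level with the trend removed.

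Respiratory complex I is the entry point of the mitochondrial electron chain and needs assembly factors that are not part of the finished complex. Ndufaf2, one such factor, was 10.2, 12.6, 12.1, 11.1 and 12.6 CPM in MS 1 to MS 5 and 9.46, 8.56, 8.26, 9.47 and 7.05 CPM in MC 1 to MC 5 (0.45 ± 0.10, edgeR adjusted p = 0.405; chromosome 13, 108002715 to 108158623). The groups did not overlap. Its exon GC content, 48.5%, is close to the median of 50.5%. With the trend removed its log2 fold change was 0.44 (edgeR adjusted p = 0.819), so it did not pass the threshold. Its p in that fit was the smallest only among named genes averaging 5 CPM or more. Tmem126b, an assembly factor of the membrane arm, also separated the groups, with 43.5 ± 2.34 CPM in MS and 38 ± 1.93 CPM in MC (0.19 ± 0.07). Of 16 assembly factors 12 stood higher and 5 did so at an unadjusted p under 0.05, against 4.45% of all genes. With the trend removed 2 did so, against 3.64% of all genes, and Tmem126b stood at 0.10. Among 35 complex I subunits 29 stood higher (median 0.06), with 3 at that level against 4.45% of all genes. These were Ndufab1 (0.20 ± 0.08), Ndufv2 (0.15 ± 0.07) and Ndufa12 (0.19 ± 0.09). With the trend removed 2 subunit genes stood higher at that level, against 3.64%. The median of the subunits was -0.02 without MS 2, MS 5 and MC 5, the libraries over 100 CPM of Ttr, where Ndufab1 stood at 0.12 and Ndufa12 at 0.09, and Ndufv2 stood at 0.06 with the trend removed. Of 76 mitochondrial ribosome genes 51 stood higher (median 0.05, and 0.00 without the same 3 libraries). At that level stood 5, a share near the 4.45% of all genes, and 2 with the trend removed, against 3.64%. Mrps14 (0.28 ± 0.10, and 0.18 with the trend removed) separated the groups. Nuclear genes of complexes II to V were split, 21 higher and 17 lower, and among 75 cytosolic ribosomal protein genes 0 reached that level.

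Several leading genes stood alone. Ccnc, cyclin C of the Mediator kinase module, was 37.8, 38.2, 37.9, 38 and 40.6 CPM in MS 1 to MS 5 and 34, 27.3, 26, 32.4 and 32.4 CPM in MC 1 to MC 5 (0.34 ± 0.08, edgeR adjusted p = 0.405). The MS libraries lay close together and all above the MC libraries. Cept1, an enzyme of phosphatidylcholine and phosphatidylethanolamine synthesis, averaged 48.7 ± 2.37 CPM in MS and 38.3 ± 3.53 CPM in MC (0.34 ± 0.08). Spryd7 (0.36 ± 0.08), Selenot, a selenoprotein of the endoplasmic reticulum (0.28 ± 0.07), Scoc, a coiled-coil Golgi protein gene (0.37 ± 0.09), and Cldnd1 (0.21 ± 0.05) likewise had groups that did not overlap, while Smim10l1 (0.39 ± 0.10) overlapped, since MS 1 lay below MC 1 and MC 4. On the lower side Map3k1, a kinase upstream of JNK signalling, was 23.1, 18.3, 22.3, 23.3 and 19.2 CPM in MS 1 to MS 5 and 26.7, 29.3, 26.4, 24.1 and 29.6 CPM in MC 1 to MC 5 (-0.36 ± 0.08; chromosome 13, 111746428 to 111808993), with no overlap. Pcnx3 (-0.26 ± 0.05), Zswim8, a substrate adaptor of a cullin ubiquitin ligase (-0.20 ± 0.05), Acbd4 (-0.24 ± 0.06), Paxip1 (-0.18 ± 0.05), the zinc finger factor gene Glis3 (-0.43 ± 0.11) and Bcl9l, a coactivator of beta-catenin (-0.34 ± 0.09), also separated the groups. Xpc, a DNA damage sensor gene (-0.36 ± 0.10), did not. With the GC and length trend removed, Ccnc stood at 0.22, Selenot at 0.17, Pcnx3 at -0.11, Zswim8 at -0.08, Acbd4 at -0.14 and Bcl9l at -0.19. Without MS 2, MS 5 and MC 5 Map3k1 stood at -0.21, and without MS 5 and MC 5 Xpc stood at -0.24. All these genes had an edgeR adjusted p of 0.405; DESeq2 called Pcnx3, Zswim8, Spryd7, Selenot, Ube2n, Scoc, Cldnd1 and Smim10l1 among its 23.

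**Figure D3:**
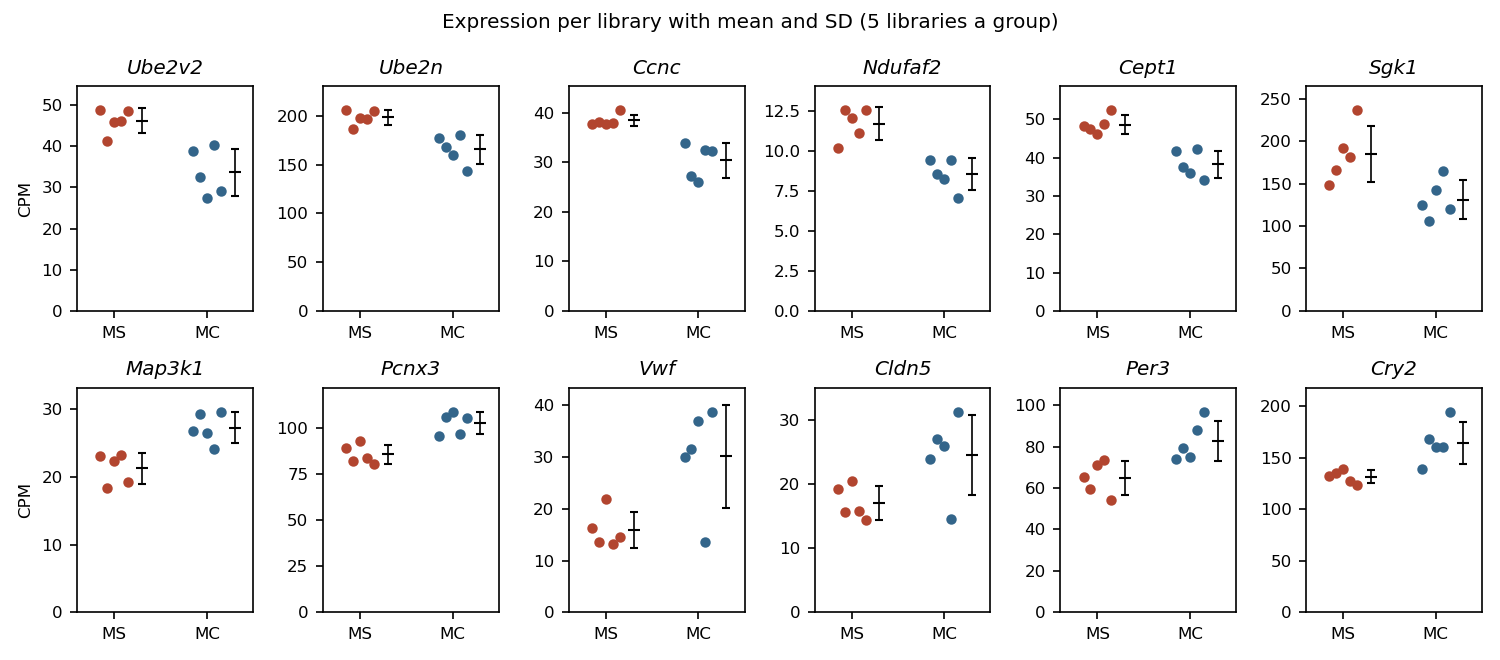
CPM of 12 genes in each library (axes from 0), MS left and MC right, with mean and SD over 5 libraries at the right of each group. Ube2v2, Ube2n, Ccnc, Ndufaf2 and Cept1 have every MS point above every MC point, Map3k1, Pcnx3 and Per3 every MS point below; MC 4 lies with the MS libraries for Vwf and Cldn5.

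The separated genes that follow were chosen for the size of their change, at a mean of at least 1 CPM and an unadjusted p under 0.01. Klhl1, an actin-binding protein gene of neurons, was 17.8, 16.7, 21.1, 22.1 and 15.3 CPM in MS 1 to MS 5 and 13.8, 11.3, 11, 9.18 and 7.98 CPM in MC 1 to MC 5 (0.80 ± 0.24). Tnfaip6, whose secreted product binds hyaluronan, averaged 11.8 ± 1.80 CPM in MS and 8.24 ± 1.40 CPM in MC (0.51 ± 0.13). Hebp2 (0.81 ± 0.24), Spink10 (0.69 ± 0.20) and Prorsd1 (0.53 ± 0.16) had low levels in both groups. The potassium channel modifier Kcns1 averaged 3.94 ± 1.03 CPM in MS and 6.99 ± 1.61 CPM in MC (-0.83 ± 0.25). Eaf2, an elongation factor partner gene (-0.96 ± 0.26), Emilin1, of elastic fibres (-0.90 ± 0.25), the sweet and umami taste receptor gene Tas1r3 (-0.68 ± 0.21), Mamstr (-0.67 ± 0.23) and Cfap157 (-0.62 ± 0.19) were lower in MS at means of 0.752 to 4.07 CPM in either group.

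The stress axis itself gave mixed values. Crh was 9.32, 11.3, 13.8, 12.3 and 10.7 CPM in MS 1 to MS 5 and 7.93, 4.98, 8.33, 5.68 and 9.29 CPM in MC 1 to MC 5 (0.67 ± 0.28, edgeR adjusted p = 0.465). Among 5 tested genes of the CRH system it alone stood at an unadjusted p under 0.05, against 4.45% of all genes higher and 5.16% lower. Crhbp, whose product binds the peptide, was at -0.59 ± 0.34, and at -0.37 without MS 5 and MC 5. The receptor gene Crhr2 was at 0.25 ± 0.32, and at -0.02 without the libraries over 100 CPM of Ttr. Nr3c1 was 116, 100, 109, 100 and 114 CPM in MS 1 to MS 5 and 118, 100, 109, 99.3 and 112 CPM in MC 1 to MC 5 (0.00 ± 0.09, of either sign across settings). Of 10 corticosteroid receptor and co-chaperone genes 8 stood higher and 2 lower. Ptges3, the p23 co-chaperone, was 103, 95.2, 85.4, 92.2 and 101 CPM in MS and 87.9, 66.7, 68.9, 88.7 and 68.7 CPM in MC (0.32 ± 0.10). Hsp90aa1, heat shock protein 90 alpha (0.28 ± 0.11), and Stip1, which links the Hsp70 and Hsp90 machines (0.26 ± 0.12), were the other 2 of them at an unadjusted p under 0.05, against 4.45% of all genes. The groups overlapped for these 3, and without MS 2, MS 5 and MC 5 Hsp90aa1 stood at 0.17 and Stip1 at 0.14. The list median was 0.12, with 0.06 without MS 1 and 0.22 without MC 4. Glucocorticoid-induced targets were split, 14 of 29 higher and 15 lower, with 3 higher at that level, against 4.45% of all genes. These were the kinase gene Sgk1, at 148, 166, 192, 181 and 237 CPM in MS and 125, 106, 142, 164 and 120 CPM in MC (0.49 ± 0.13, edgeR adjusted p = 0.405), the glucose transporter gene Slc2a1 (0.19 ± 0.08) and Errfi1 (0.20 ± 0.09), an inhibitor of the EGF receptor. MS 5 was the highest library for each of the 3, and without it Slc2a1 stood at 0.09 and Errfi1 at 0.08. Without MS 5 and MC 5 Sgk1 stood at 0.37. With the GC and length trend removed, 3 of the 29 targets stood higher at an unadjusted p under 0.05, against 3.64% of all genes. Fkbp5, a classic target, stood at -0.27 ± 0.27 and turned to 0.08 without MS 5 and MC 5, MC 5 alone having 132 CPM.

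**Figure D4:**
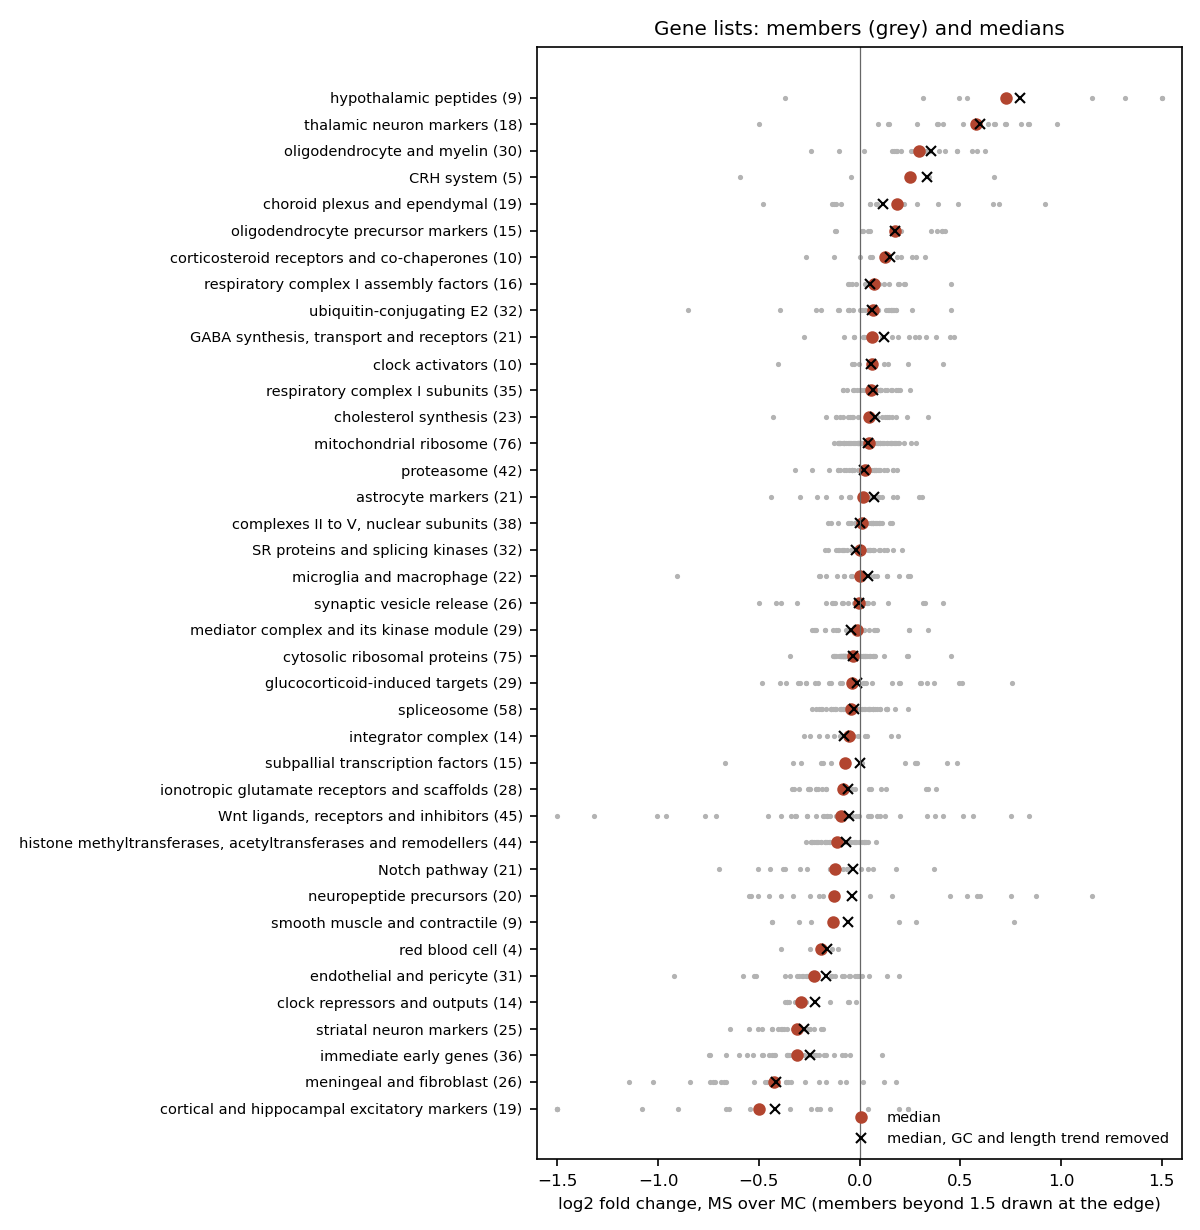
Log2 fold change of MS over MC for the tested autosomal members of 39 gene lists (grey points, number tested in brackets), with the list median (red) and the median after the GC and length trend was removed (cross). Myelin genes lie to the right (median 0.30) and immediate early, clock repressor and meningeal genes to the left (-0.31, -0.29 and -0.43); both medians of each of these lists lie on the same side of 0.

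All 14 clock repressor and output genes stood lower in MS (median -0.29), 6 of them at an unadjusted p under 0.05 against 5.16% of all genes. Per3, a period gene, was 65.5, 59.7, 71.2, 73.7 and 54 CPM in MS 1 to MS 5 and 74, 79.1, 75.1, 88.2 and 96.8 CPM in MC 1 to MC 5 (-0.35 ± 0.11, edgeR adjusted p = 0.405; chromosome 4, 151003652 to 151044665). MS 4 and MC 1 lay next to each other, so the separation was narrow, and without MS 5 and MC 5 Per3 stood at -0.21. Cry2, a cryptochrome repressor, was 132, 135, 140, 127 and 124 CPM in MS and 139, 168, 160, 161 and 195 CPM in MC (-0.32 ± 0.10, edgeR adjusted p = 0.405), overlapping at MS 3 and MC 1. The nuclear receptor gene Nr1d1 (-0.27 ± 0.09), Ciart (-0.36 ± 0.14), Bhlhe40 (-0.36 ± 0.17) and Tef (-0.28 ± 0.13) were the others. The activator list, with Arntl at 0.14 ± 0.14 and Npas2 at -0.40 ± 0.27, was split 6 higher and 4 lower, and Arntl stood at 0.03 without MS 2. With the GC and length trend removed all 14 repressors and outputs still stood lower (median -0.22, 4 at an unadjusted p under 0.05, against 2.21% of all genes). Without MS 5 and MC 5 the median was -0.19, and without MS 2, MS 5 and MC 5 it was also -0.19, with Per3 and Nr1d1 both at -0.17. The sources used here do not give the hour at which tissue was taken.

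Many clock genes are bound at the E-box CACGTG by the activators and at the D-box (TTATGTAA, on the other strand TTACATAA) by Dbp, Tef, Hlf and Nfil3. Both motifs were searched on both strands in RefSeq promoter windows (GRCm38.p6, 250 bases before to 50 after the start). An E-box was found in a window of 5 and a D-box in that of 1 of the 12 genes with an entry, where 8.09% and 1.11% of the 27025 genes with a window held them. The 2 promoters shown carry the most of each, 3 E-boxes in Ciart (chr3:95882229-95882478, minus strand) and 2 D-boxes in Per3 (chr4:151044666-151044915, minus strand). Only the 250 bases before the start are printed, 5′ to 3′, with the motifs in capitals.
Ciart: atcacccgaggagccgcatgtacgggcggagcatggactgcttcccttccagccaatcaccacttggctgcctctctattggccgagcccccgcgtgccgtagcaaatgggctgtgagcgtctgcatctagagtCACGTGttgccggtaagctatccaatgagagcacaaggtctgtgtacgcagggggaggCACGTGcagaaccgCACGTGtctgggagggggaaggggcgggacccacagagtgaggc
Per3: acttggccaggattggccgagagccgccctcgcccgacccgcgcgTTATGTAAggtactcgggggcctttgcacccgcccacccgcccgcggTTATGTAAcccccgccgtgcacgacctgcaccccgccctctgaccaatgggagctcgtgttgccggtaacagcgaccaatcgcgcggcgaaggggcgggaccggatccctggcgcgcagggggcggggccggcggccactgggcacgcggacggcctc

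Immediate early genes stood lower in 35 of 36 members (median -0.31), 5 at an unadjusted p under 0.05 against 5.16% of all genes. With the trend removed 3 stood at that level, against 2.21% of all genes. Zfp36, whose product destabilises mRNA, was 4.19, 3.42, 6.13, 4.2 and 5.33 CPM in MS 1 to MS 5 and 14.5, 8.38, 4.97, 5.16 and 6.05 CPM in MC 1 to MC 5 (-0.75 ± 0.25, edgeR adjusted p = 0.413). Btg2, an antiproliferative gene, was 17.4, 11.9, 18.5, 12.6 and 10.9 CPM in MS and 23.5, 23.2, 18.2, 10.4 and 32.7 CPM in MC (-0.60 ± 0.26). The MC libraries were the more scattered, and the groups overlapped for both genes. Zfp36 stood at -0.40 without MC 1, and Btg2 at -0.30 without MS 5 and MC 5. Klf2 (-0.42 ± 0.18), Ier2 and Bhlhe40, which is also in the clock list, were the other 3, and Klf2 stood at -0.28 without MC 1. Fos, the best known of the family, stood at -0.17 ± 0.24. As a mean over the list, MS 5 was lowest and MC 5 highest, at -0.389 and 0.502 log2 units from the mean of the 10 libraries. Without these 2 libraries the list median was -0.17.

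**Figure D5:**
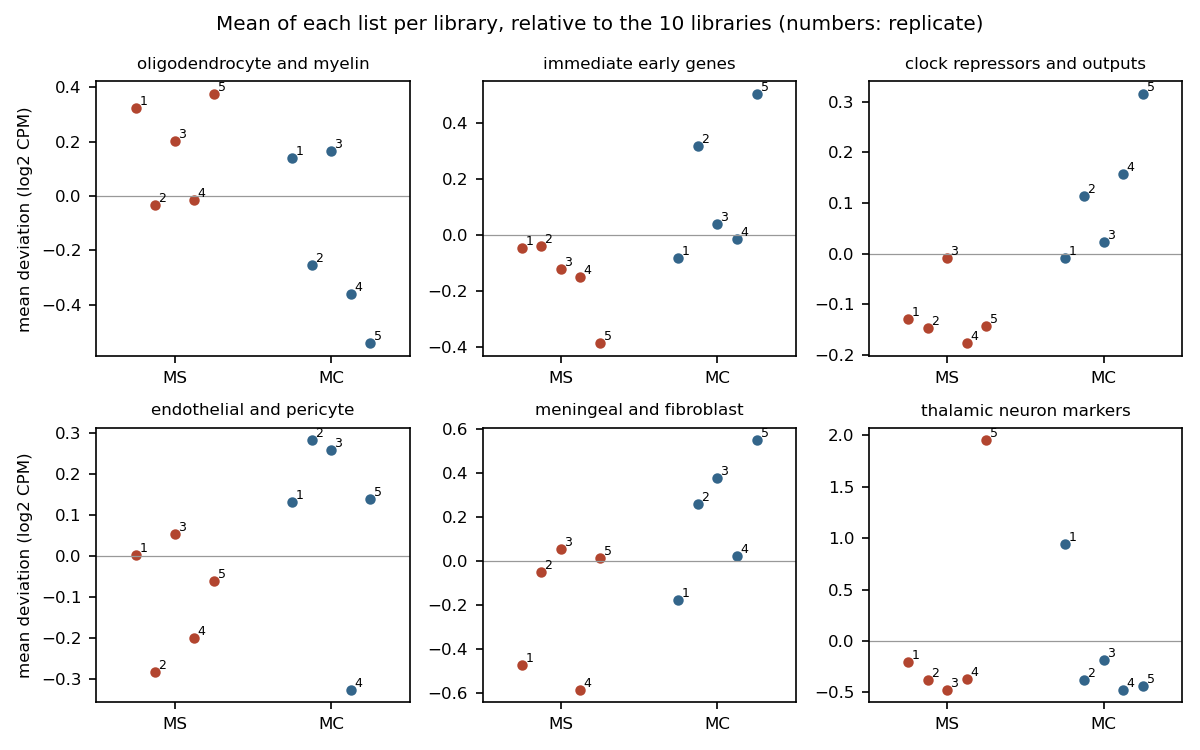
Mean over a list of each member's log2 CPM minus its mean in the 10 libraries, 1 point a library with its replicate number, MS left and MC right, for 6 lists. MS and MC overlap in all 6; clock repressors come nearest to separation (highest MS -0.00786, lowest MC -0.00866), and MS 5 stands alone in thalamic markers at 1.95.

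GABA genes stood higher in 17 of 21 members (median 0.06, and 0.12 with the trend removed). The median ran from 0.04 without MS 4 to 0.13 without MC 4 and was 0.17 without MS 2, MS 5 and MC 5. Of these genes, 3 stood higher at an unadjusted p under 0.05, against 4.45% of all genes, and 2 with the trend removed, against 3.64%. Gabrg1, a GABA-A receptor subunit gene, was 112, 87.7, 104, 104 and 93.8 CPM in MS 1 to MS 5 and 95.7, 65.1, 71.2, 71.6 and 82.1 CPM in MC 1 to MC 5 (0.38 ± 0.18, edgeR adjusted p = 0.51). The groups overlapped, with MS 2 and MS 5 below MC 1. Its exon GC content was 35.1%, and its log2 fold change with the trend removed was 0.26. Ionotropic glutamate genes stood lower in 21 of 28 members, with the AMPA receptor subunit Gria4 higher (0.34 ± 0.12) and the kainate and NMDA receptor subunits Grik5 (-0.33 ± 0.14) and Grin1 (-0.19 ± 0.08) lower at that level. With 1 gene higher and 2 lower, the shares were near the 4.45% and 5.16% of all genes. The median of the list was -0.08, and ran from -0.15 without MC 3 to -0.03 without MC 4. Grin1 and Grik5 have a GC content of 58.4% and 60.8% and stood at -0.06 and -0.20 with the trend removed.

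Myelin genes stood higher in 28 of 30 members (median 0.30), 7 at an unadjusted p under 0.05 against 4.45% of all genes. Ermn, a cytoskeletal protein gene of myelinating cells, was 96.5, 66.5, 86.3, 81.5 and 103 CPM in MS 1 to MS 5 and 76.3, 55.7, 67.5, 61.4 and 33.4 CPM in MC 1 to MC 5 (0.56 ± 0.18, edgeR adjusted p = 0.405). Tspan2, a tetraspanin, averaged 193 ± 22.3 CPM in MS and 147 ± 30.9 CPM in MC (0.39 ± 0.13), and transferrin, Trf, 24.2 ± 4.88 CPM in MS and 15.7 ± 5.92 CPM in MC (0.62 ± 0.22). MC 5 was the lowest library for Ermn and Trf, and without MS 5 and MC 5 they stood at 0.36 and 0.39 and the list median at 0.20. With the GC and length trend removed the median was 0.35 and 17 members stood higher at an unadjusted p under 0.05, against 3.64% of all genes. Oligodendrocyte precursor markers stood higher in 13 of 15 members (median 0.18, and 0.18 without MS 5 and MC 5). C1ql1, a synaptic organiser made by these precursors, averaged 13.4 ± 1.17 CPM in MS and 10.1 ± 1.93 CPM in MC (0.41 ± 0.14), and Bcas1 (0.42 ± 0.17) and Lhfpl3 (0.35 ± 0.14, and 0.23 with the trend removed) also stood higher, whereas the defining markers Pdgfra (0.02 ± 0.08) and Cspg4 (0.01 ± 0.11) were near 0. In bulk tissue, more cells of a type and more RNA per cell cannot be told apart.

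Most vascular and meningeal genes stood lower. Endothelial and pericyte markers did so in 27 of 31 members (median -0.23), with 6 lower and 1, Slc2a1, higher at an unadjusted p under 0.05, against 5.16% and 4.45% of all genes. The median was -0.14 without MC 3. Vwf, von Willebrand factor, was 16.3, 13.6, 21.8, 13.2 and 14.6 CPM in MS 1 to MS 5 and 30, 31.4, 36.9, 13.5 and 38.7 CPM in MC 1 to MC 5 (-0.92 ± 0.24, edgeR adjusted p = 0.405). Cldn5, the tight junction claudin, was 19.3, 15.6, 20.5, 15.9 and 14.4 CPM in MS and 23.9, 27.1, 26.1, 14.6 and 31.4 CPM in MC (-0.52 ± 0.15). MC 4 lay within the MS range for both, and the other MC libraries lay above every MS library. Without MS 2, MS 5 and MC 5 Cldn5 stood at -0.30. For Pdgfrb of pericytes (-0.51 ± 0.16, and -0.34 without these 3 libraries) MC 4 was the lowest of all libraries and the other MC libraries lay above every MS library. The pericyte marker Rgs5 stood at 0.14 ± 0.20 and the smooth muscle gene Acta2 at -0.43 ± 0.27, and at -0.27 without MC 3. Meningeal and fibroblast genes stood lower in 23 of 26 members (median -0.43), 8 at an unadjusted p under 0.05 (5.16% of all genes) and 8 with the trend removed (2.21% of all genes). Among them were Islr (-0.74 ± 0.20), the organic anion transporter gene Slc22a6, at 1.63 ± 0.508 CPM in MS and 3.62 ± 1.41 CPM in MC (-1.14 ± 0.33), and Aldh1a2, a retinoic acid synthesis enzyme (-0.84 ± 0.28). The members of this list summed to 366.4 to 434.6 CPM in MS and 371.4 to 644.7 CPM in MC, with MC 1 the one MC library within the MS range, and the part of this tissue in other differences was not tested. The endothelial and pericyte members summed to 699.8 to 974.5 CPM in MS and 691.7 to 1045 CPM in MC. The scavenger receptor gene Cd163, a marker of perivascular and meningeal macrophages, was 4.26, 5.01, 3.98, 4.14 and 4.35 CPM in MS and 5.43, 10.1, 8.06, 7.4 and 9.79 CPM in MC (-0.91 ± 0.34), without overlap. The microglial markers Tmem119 (0.13 ± 0.17) and Cx3cr1 (0.01 ± 0.20) lay within 1 standard error of 0. Sall1, of the microglia and macrophage list, stood at -0.20 ± 0.09, with overlap, and at -0.14 with the trend removed. Of the 22 genes of that list 11 stood higher and 11 lower (median -0.0006). At an unadjusted p under 0.05 stood 0 higher and 2 lower, Cd163 and Sall1, against 4.45% and 5.16% of all genes.

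Wnt proteins are secreted signals of development and vessels. Of 45 Wnt pathway genes 31 stood lower (median -0.09, -0.05 with the trend removed and -0.19 without MS 5). At an unadjusted p under 0.05 stood 4 lower, against 5.16% of all genes, and 3 with the trend removed, against 2.21%. Wnt16 was 0.135, 0.461, 0.316, 0.679 and 0.198 CPM in MS 1 to MS 5 and 0.793, 1.03, 1.01, 1.03 and 1.87 CPM in MC 1 to MC 5 (-1.65 ± 0.36, edgeR adjusted p = 0.405; chromosome 6, 22288227 to 22298522). No MS library reached the lowest MC library. Wnt6 (-1.32 ± 0.44) and the secreted Dickkopf family gene Dkk3 (-0.71 ± 0.26) stood lower as well, Dkk3 at 63.3 ± 14.9 CPM in MS and 104 ± 23.3 CPM in MC and at -0.47 without MS 5 and MC 5. Notch pathway genes stood lower in 16 of 21 members (median -0.12, and -0.03 with the trend removed). At an unadjusted p under 0.05 stood 5 lower, against 5.16% of all genes. With the trend removed 3 stood lower and 2 higher at that level, against 2.21% and 3.64%. Among the 5 were Maml1, a coactivator (-0.29 ± 0.11, and -0.19 without MS 5 and MC 5), and the receptor Notch2 (-0.38 ± 0.15). Nrarp, a feedback inhibitor (-0.70 ± 0.26), had 21.5 CPM in MC 5 and stood at -0.18 without MS 5 and MC 5.

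The histone, integrator, Mediator and spliceosome lists had more members lower than higher in MS, where 7617 of all 14322 genes stood lower. The Mediator median was -0.01, against -0.01 over all genes. SR protein and splicing kinase genes were split, 16 higher and 16 lower, with 0 at an unadjusted p under 0.05. The median exon GC content was 51.1% in the list of histone modifying and remodelling genes and 47.8%, 48.4% and 48.6% in the integrator, Mediator and spliceosome lists, against 50.5% over all genes. Of 44 histone modifying and remodelling genes 37 stood lower (median -0.11), 12 at an unadjusted p under 0.05 against 5.16% of all genes, led by the histone methyltransferases Kmt2b (-0.27 ± 0.09) and Ehmt2 (-0.22 ± 0.08) and by Brd2, a reader of acetylated histones (-0.20 ± 0.08). With the trend removed the median was -0.07, 2 genes stood lower at that level (2.21% of all genes), and Kmt2b, Ehmt2 and Brd2 stood at -0.13, -0.09 and -0.10. Without MS 2, MS 5 and MC 5 the median was -0.03, and without MS 5 and MC 5 Brd2 stood at -0.12. Integrator cleaves nascent small nuclear RNAs and promoter-proximal transcripts. Its endonuclease gene Ints11 was 20.5, 20.2, 18.8, 20.1 and 18.1 CPM in MS 1 to MS 5 and 22.2, 23.7, 24.5, 23.6 and 24.5 CPM in MC 1 to MC 5 (-0.28 ± 0.07, edgeR adjusted p = 0.405; chromosome 4, 155869546 to 155889103). Its largest subunit gene, Ints1, averaged 120 ± 4.90 CPM in MS and 143 ± 7.93 CPM in MC (-0.25 ± 0.07). Both separated the groups, and they stood at -0.21 and -0.10 with the trend removed; Ints12 stood at 0.19 ± 0.09, and at 0.09 with the trend removed. The list median was -0.05, and -0.02 without MC 4. In Mediator, which links activators to RNA polymerase II, Ccnc and Med21 were higher at an unadjusted p under 0.05 and 4 subunit genes lower, among them Med25 (-0.24 ± 0.07, no overlap) and Med24 (-0.23 ± 0.08). These are 2 and 4 of 29 genes, against 4.45% and 5.16% of all genes. With the trend removed 1 Mediator gene stood higher and 0 lower at that level, against 3.64% and 2.21% of all genes. Med25 then stood at -0.10 and Med24 at -0.13. Among 58 spliceosome genes 1 was higher and 4 lower at that level, against 4.45% and 5.16% of all genes. With the trend removed 0 were higher and 1 lower, against 3.64% and 2.21%. An example is Snrnp70, of the U1 particle, which averaged 384 ± 17.1 CPM in MS and 439 ± 24.6 CPM in MC (-0.19 ± 0.06, and -0.11 with the trend removed).

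Markers of adjoining regions depended on single libraries. Thalamic markers stood higher in 17 of 18 members (median 0.58), but the median was -0.39 without MS 5 and MC 5, -0.35 without MS 5 alone and 1.03 without MC 1. Hypothalamic peptides stood higher in 8 of 9 (0.73, -0.39 without both, -0.11 without MS 5 alone and 2.21 without MC 1). They summed to 34.11 to 208.8 CPM in MS, against 252 CPM in MC 1 and 9.925 to 17.87 CPM in the other MC libraries. Pmch, the melanin-concentrating hormone gene, was 23.5 CPM in MS 5 and 0.19 to 0.432 CPM in the other MS libraries, against 0.0574 to 0.789 CPM in MC, and its log2 fold change of 3.80 turned to -0.55 without MS 5 and MC 5. Cortical and hippocampal markers stood lower in 15 of 19 members (-0.50, -0.26 without both and -0.24 without MC 5 alone), with Neurod6 at 0.769 ± 0.248 CPM in MS and 4.03 ± 3.68 CPM in MC. All 25 striatal markers stood lower (median -0.31, -0.15 without MS 5 and -0.48 without MS 2) with 0 at an unadjusted p under 0.05. The part of this RNA in the other differences was not tested.

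The stress effect in males was set against that in females of the same study, 5 susceptible against 5 control libraries. No gene passed the test of the difference between the sexes (edgeR interaction, 0% called, smallest adjusted p = 0.587, 1185 autosomal genes at an unadjusted p under 0.05). For Ube2v2 the log2 fold change was 0.45 ± 0.09 in males and 0.01 ± 0.09 in females, and their difference 0.44 ± 0.13 (edgeR adjusted p = 0.587). Apart from Sgk1, the genes shown here were named by small p-values in males, so weaker female values follow in part from that choice. Ndufaf2 stood at 0.45 in males and 0.03 in females (difference 0.42 ± 0.14). Map3k1 stood at -0.36 in males and 0.08 in females (difference -0.43 ± 0.12). Per3 stood at -0.35 in males and 0.08 in females (difference -0.43 ± 0.15), and Ermn at 0.56 in males and -0.26 in females (difference 0.82 ± 0.25). The edgeR adjusted p was 0.587 for each of these differences. Sgk1 stood higher in both, at 0.49 in males and 0.48 in females.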

How the data were processed

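Polyadenylated RNA of mouse BNST was sequenced in 20 libraries, 10 of them male. The authors deposited raw read counts per gene for each library; per the submitters' processing notes HISAT2, featureCounts and the mm10 assembly were used. The sources used here do not give versions, annotation, strand setting or the treatment of multiply mapped reads, so overlapping, antisense and near-identical genes cannot be separated.

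Of 19214 genes, 19206 matched GENCODE release 21 by identifier. Counts were scaled by TMM, filtered with filterByExpr (14884 genes left) and fitted by edgeR 4.0.16 quasi-likelihood in R 4.3.3, with all 20 libraries in the fit and a mean for each group. Benjamini-Hochberg adjustment ran over the 14884 genes, with a threshold of 0.05. Groups came from the titles. A chi-square test of counts found every pair of libraries within a group to differ beyond sampling noise. The precision of each value therefore rests on the spread between libraries as well as on total counts.

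Alternatives were DESeq2 1.42.0 (size factors, and its Wald test), limma 3.58.1 voom with quality weights, other count filters, the replicate number as a block, the male libraries alone, 1 surrogate variable (sva 3.50.0), offsets that take out each library's smooth dependence on GC content and exon length (mgcv 1.9.3), leaving out libraries over 100 CPM of Ttr, and leaving out each male library. Leaving out MS 5 and MC 5 together was added after principal components were seen. The code was tested on simulated data.

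The comparison and its 39 gene lists were chosen with earlier results of these data known. Genes were named by rule. First came the 10 smallest p-values in each direction at a mean of at least 5 CPM. Genes whose sign turned without a male library were left out of this step only. Next came the 6 largest changes in each direction among separated genes at a mean of at least 1 CPM and an unadjusted p under 0.01. Predicted models were left out of both steps. Then came up to 3 members of each list by smallest p, and Sgk1, Crh, Fkbp5 and Nr3c1. Ube2l3, Ube2q2, Ube2r2, Ciart, Bhlhe40, Tef, Ier2, Fos, Med21, and the marker genes Gad1, Gad2, Ttr, Slc17a6, Slc17a7, Pdgfra, Cspg4, Rgs5, Tmem119 and Cx3cr1 were named after values were seen. Some genes that the rule names are not reported here.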

Additional observations from a re-analysis of the deposited data

Results flagged for a closer look

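A library was flagged where its gap to the nearest library of its group was large against the range of the group. Of 286 groups of 5 values checked, 28 were flagged, where chance flags about 1 in 20 groups. MS 5 was the highest MS library for Calb2 (154 CPM), Slc17a6 (334 CPM), Rorb (52.8 CPM), Vav3 (57.2 CPM), Pmch (23.5 CPM), Hcrt (12.2 CPM) and Prlr (69.2 CPM), genes of thalamic, hypothalamic, choroid plexus and, for Rorb, clock activator lists. It was also the highest MS library for Ccnc (40.6 CPM), Errfi1 (50.6 CPM), Hsp90aa1 (1311 CPM), Scoc (179 CPM) and Slc2a1 (140 CPM). MS 2 was the lowest MS library for Glis3 (4.68 CPM) and Lhfpl3 (52.8 CPM) and the highest for Med24 (114 CPM) and Neurod2 (8.1 CPM). MS 1 was the lowest for Ndufv2 (108 CPM) and Psmc6 (76.7 CPM), and MS 4 the highest for Gsx2 (1.79 CPM).

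Among controls, MC 1 was the highest MC library for Calb2 (117 CPM), Slc17a6 (173 CPM), Vav3 (21.2 CPM) and Msmo1 (79.1 CPM) and the lowest for Ehmt2 (218 CPM). MC 5 was the highest MC library for Eaf2 (2.43 CPM), Snrpd3 (60.3 CPM), Sox9 (82.7 CPM) and Wnt16 (1.87 CPM).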

How the results depend on the processing

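In edgeR 0 genes passed the threshold in every setting and without each library in turn (0 to 0), for the male comparison and for the difference between the sexes, where the fit of the male libraries alone gives no value. The DESeq2 Wald test called 23 and limma voom with quality weights 630. The 1376 genes at an unadjusted p under 0.05 became 3452 with limma voom, 838 with the GC and length trend removed, 2384 with limma voom and the trend removed, 862 without the libraries over 100 CPM of Ttr and 839 without MS 5 and MC 5, with a range of 938 to 1764 over single libraries left out. The difference in median log2 fold change between the bins of lowest and highest GC content, 0.181, was 0.241 with limma voom, 0.00227 with the trend removed, 0.00167 with both, as that removal is built to do, and 0.149 to 0.204 without single libraries.

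With the replicate block there were 0 calls and 1429 genes at an unadjusted p under 0.05, 691 higher and 738 lower. Same-numbered MS and MC libraries correlated at 0.019, 0.098, 0.144, 0.251 and 0.159, all positive but low, and 1 of 5 numbers matched itself best. Whether the numbers pair the libraries cannot be decided from these values.

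Of 3078 values of 144 named genes, 2967 kept direction and side of the threshold, 75 passed it and 36 reversed. The reversed log2 fold changes, whose cause was not tested, were as follows. With the trend removed, Acin1 was 0.0019, Nr3c1 -0.0393 and Uqcrb -0.0152. With 1 surrogate variable, Calml4 was -0.0797, Hcrt -0.353 and Nr3c1 -0.0262. With limma voom, Fkbp5 was 0.0678 and Hcrt -1.61, and with the trend removed as well Fkbp5 was 0.129, Hcrt -1.51, Nr3c1 -0.0419 and Uqcrb -0.0716. Without the libraries over 100 CPM of Ttr, Calml4 was -0.189, Crhr2 -0.0156, Hcrt -3.75, Pmch -0.453, Rorb -0.0732, Slc17a6 -0.124 and Vav3 -0.231. Without MS 5 and MC 5, Fkbp5 was 0.0777, Hcrt -2.42, Pmch -0.547, Rorb -0.047, Slc17a6 -0.115 and Vav3 -0.205. Without single libraries the ranges were -0.402 to 0.156 for Fkbp5 (positive without MC 5), -0.46 to 0.114 for Hba-a2, -2.13 to 3.38 for Hcrt, -0.0235 to 0.039 for Nr3c1, -0.411 to 4.36 for Pmch and -0.118 to 1.01 for Vav3, the last 2 and Hcrt being negative without MS 5. Median log2 fold changes of the thalamic and hypothalamic lists depended on MS 5 and MC 1, with -0.35 and -0.106 without MS 5 and 1.03 and 2.21 without MC 1.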
